A study of Mus musculus with 4 samples.

Results

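The genes described here are 10 genes of the response that ATF4 and CHOP govern when cells are starved of amino acids or when proteins misfold: Atf4, Ddit3, Trib3, Asns, Chac1, Atf3, Ppp1r15a, Atf5, Cebpb and Slc3a2. They were taken by name, with earlier results of these data known. Every probe set whose array annotation gave 1 of these symbols and no other was kept. This gave 16 probe sets of 10 genes, among 45037 probe sets and 18193 named genes on the array. They were measured in the cytoplasmic RNA of Neuro2A cells, a mouse neuroblastoma line, on 2 arrays of cells depleted of endogenous 4.5SH (4.5SH KD) and 2 arrays of control cells. 4.5SH is a small noncoding RNA of rodents related in sequence to B1 repeats, and the study sought genes with antisense B1 elements on which it acts. Antisense oligonucleotides were transfected at 30 nM, and 200 ng of poly(A)+ RNA went into each labelling. What was transfected into control cells is not named in the labels, and 4.5SH itself has no named probe set, so its depletion was not checked. All cells were of 1 line, and the labels call the samples biological replicates without saying whether they came from separate transfections.

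In this pathway, stress-sensing kinases phosphorylate the initiation factor eIF2. Most translation then slows, while ATF4 protein is made more efficiently from an mRNA that is already there. ATF4, a leucine zipper transcription factor, pairs with C/EBP family proteins and turns on genes of amino acid supply as well as Ddit3, the gene of CHOP. Because ATF4 is controlled largely at translation, its mRNA is not a readout of its protein, and arrays read mRNA alone.

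The neuroblastoma and neuronal markers Stmn2, Uchl1, Hand2, Phox2a, Tubb3 and Chga, 6 of the 11 on the array, had mean signals above 100 in both groups. Isl1 had means of 118.75 in the knockdown and 92.6 in the control, and Mycn was dim at 39.15 and 36.9. Th, Gata3 and Dbh were also dim, with every array at or below 36.5. Markers of other cell types summed to 594 and 612 in the 4.5SH knockdown and to 985 and 1058 in the control, of which Cd68 made up most. Cd68 (-0.94 ± 0.093) and Pecam1 (-0.88 ± 0.15) were lower, and the other 5 of the 7 tested did not pass. The collagen genes Col1a1, Col1a2 and Col3a1 and the leukocyte gene Ptprc lay between 0.3 and 20.6 on every array. Malat1, a nuclear long noncoding RNA, read 76.1 and 50.2 in the 4.5SH knockdown, against 433.8 and 417.2 in the control at its brightest probe set. Neat1, another nuclear RNA, read 22.8 and 12.9 in the knockdown, against 41.2 and 37.2 in the control. Both Malat1 (-2.50 ± 0.15) and Neat1 (-0.72 ± 0.23) were lower (limma adjusted p = 9.75e-08 and 0.0243). Actb, a cytoskeletal gene often used as a control, did not pass (0.067 ± 0.048, limma adjusted p = 0.303). The part of these differences in the results below, and how much nuclear RNA each cytoplasmic fraction held, were not tested. In the cytoplasmic fraction of bulk cells, less RNA per cell, fewer cells of a kind and less export from the nucleus cannot be told apart. Across all tested probe sets the median log2 fold change was -0.11 on the deposited scale, and arrays had 2% trimmed mean signals of 128 and 133 in the knockdown, against 149 and 144 in the control.

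Among these genes, Cebpb, the brighter Ddit3 probe set, Slc3a2 and Ppp1r15a were lower in 4.5SH-depleted cells, and Asns, asparagine synthetase, was higher. Atf4 mRNA itself was slightly lower on the deposited scale (-0.15 and -0.19). These values were close to the median of all tested probe sets, and the call was lost on several other scales. Of the 15 probe sets that were bright enough to test, 9 were lower, 3 were higher and 3 did not pass (limma, adjusted p at 0.05 over all 22525 tested probe sets). The 3 that did not pass were both probe sets of Trib3 and that of Atf3. In the same fit 25.8% of all tested probe sets were lower and 9.76% were higher, and the median of the 15 was -0.19, beside -0.11 over all. Of the 15, 14 lay among the 11260 brightest probe sets of the array, of which 39.9% were lower and 12.9% higher, with a median of -0.17. The arrays of the 2 groups did not overlap at 13 of the 15 probe sets, and at 66.9% of all tested ones. That share was not taken among the brightest probe sets alone, where 14 of the 15 lie. The smallest p of an exact permutation of 4 arrays is 0.333, so the p-values below depend on limma's pooling of variance over probe sets. Values after ± are standard errors of that fit on the scale of log2(signal + 16), unless marked SD.

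**Figure D1:**
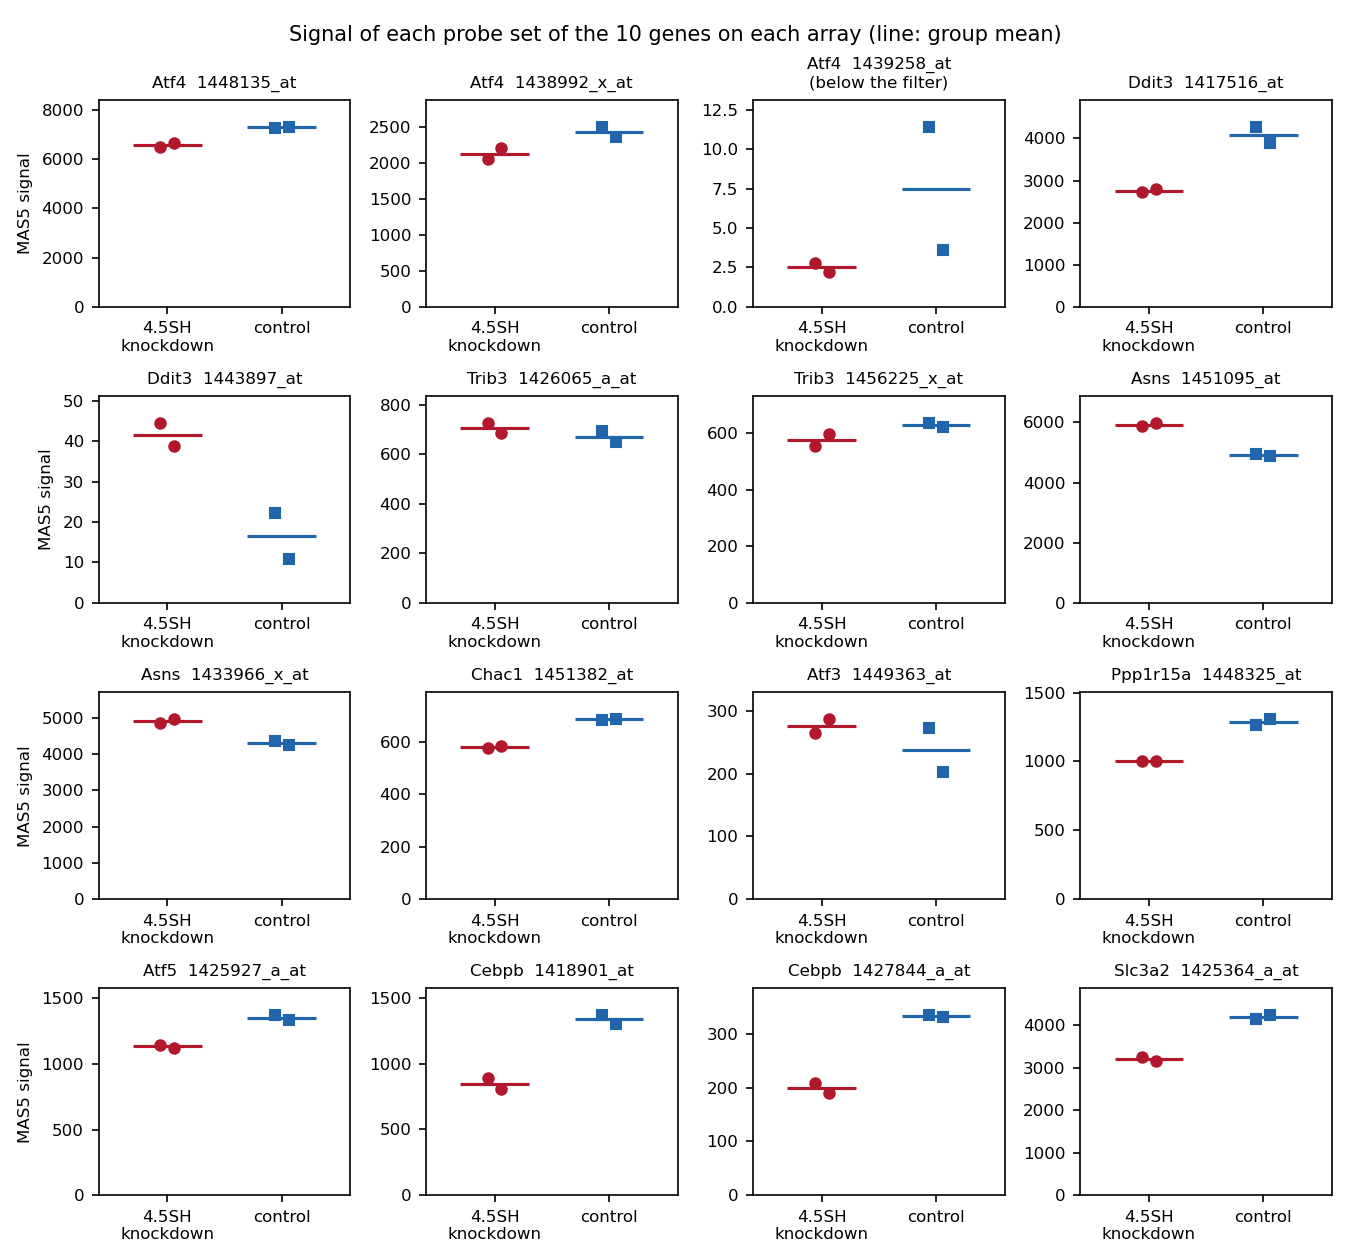
MAS5 signal (vertical axis, linear from 0) of each of the 16 probe sets on the 2 arrays of the 4.5SH knockdown (circles) and the 2 of the control (squares), with lines at the group means. The arrays of the groups stand apart at most probe sets, with Cebpb, Slc3a2 and the brighter Ddit3 probe set lower in the knockdown and both Asns probe sets higher, and overlap at Atf3 and at 1 probe set of Trib3.

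The brightest of the 3 Atf4 probe sets, 1448135_at, read 6485.5 and 6660 in the 4.5SH knockdown, against 7275.5 and 7292.1 in the control. Both knockdown arrays were below both control arrays, at a mean of 0.902 times the control signal. The log2 fold change was -0.15 ± 0.042 (limma adjusted p = 0.0135). The second probe set, 1438992_x_at, whose suffix marks probes that may also bind other transcripts, read 2045 and 2202.7 in the knockdown, against 2493 and 2362.7 in the control. Its log2 fold change was -0.19 ± 0.06 (limma adjusted p = 0.0226). The third probe set, 1439258_at, lay below the filter (2.8 and 2.2 in the knockdown, against 11.4 and 3.6 in the control) and was not tested. Both tested values were close to the median of all probe sets: 46% of tested probe sets had a lower log2 fold change than the first and 41.5% than the second. The call was tied to the scale of the arrays. The values were -0.017 and -0.061 once arrays were centred on tested probe sets, and 0.020 and -0.024 with a common 2% trimmed mean, and none of these passed. Without 4.5SH knockdown replicate 1 they were -0.13 and -0.14 and did not pass (limma adjusted p = 0.117 and 0.195), and without control replicate 1 the second was -0.15 and did not pass.

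Ddit3 encodes CHOP, a C/EBP family factor that ATF4 induces and that promotes cell death under lasting stress. Its bright probe set 1417516_at read 2735.4 and 2788.8 in the 4.5SH knockdown, against 4267.3 and 3881.9 in the control. Both knockdown arrays were lower than both control arrays, and the gap between the groups was larger than the spread within either. The log2 fold change was -0.56 ± 0.056 (limma adjusted p = 7.07e-06), a signal of 0.678 times the control. The second probe set, 1443897_at, moved the other way: it read 44.4 and 38.8 in the knockdown, against 22.2 and 10.9 in the control, with a log2 fold change of 0.84 ± 0.24 (limma adjusted p = 0.0124). It was dim, with only 15.1% of tested probe sets dimmer, and its control arrays lay far apart for their level. Its size followed the pseudocount, at 1.36 with 1 and 0.39 with 64, and it did not pass without 4.5SH knockdown replicate 1 (0.77) or without control replicate 2 (0.59). Where in the gene each probe set lies was not analysed here.

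Cebpb encodes C/EBPβ, a leucine zipper factor that pairs with ATF4 and CHOP, and had the lowest log2 fold changes of the 10 genes. Its probe set 1418901_at read 889.2 and 808.7 in the 4.5SH knockdown, against 1370.7 and 1308.4 in the control, a log2 fold change of -0.65 ± 0.072 (limma adjusted p = 1.55e-05). The second probe set, 1427844_a_at, read 208 and 189.5 in the knockdown, against 334.9 and 331.8 in the control, and gave -0.70 ± 0.10 (limma adjusted p = 0.000134). Both probe sets fell by similar amounts, to 0.634 and 0.596 of the control signal, and only 8.27% and 6.49% of tested probe sets had lower log2 fold changes.

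Of the other leucine zipper factors, Atf5 and Atf3, only Atf5 passed on the deposited scale, and the difference between them was not tested. Atf5, which like Atf4 is controlled at translation and is also an ATF4 target, read 1146.6 and 1122.3 in the 4.5SH knockdown, against 1370.9 and 1336.4 in the control. Its log2 fold change of -0.25 ± 0.064 passed (limma adjusted p = 0.00758), but did not pass without 4.5SH knockdown replicate 2 (-0.24, limma adjusted p = 0.053). Atf3, a stress-induced repressor and activator of transcription, read 265.9 and 287.2 in the knockdown, against 272.8 and 203 in the control. Its groups overlapped and its 0.22 ± 0.13 did not pass (limma adjusted p = 0.211, 95% interval -0.058 to 0.49). The control arrays of Atf3 were far apart, and without control replicate 1 the value was 0.42 and passed (limma adjusted p = 0.0273), whereas without control replicate 2 it was 0.018 and did not (limma adjusted p = 0.937).

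Trib3, a pseudokinase that binds ATF4 and CHOP and dampens their activity, did not pass at either probe set. Probe set 1426065_a_at read 726 and 686.3 in the 4.5SH knockdown, against 693.3 and 648.9 in the control, with overlapping groups. Probe set 1456225_x_at read 553.6 and 595.4 in the knockdown, against 633.7 and 620.1 in the control, without overlap. Log2 fold changes of 0.072 ± 0.079 and -0.12 ± 0.081 had opposite signs (limma adjusted p = 0.515 and 0.261). Their 95% intervals were -0.097 to 0.24 and -0.30 to 0.050.

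Ppp1r15a encodes GADD34, which brings a phosphatase to eIF2 and so ends the response. It read 1004 and 1002.1 in the 4.5SH knockdown, against 1267.7 and 1306.7 in the control. The knockdown arrays were almost equal and well below both control arrays, and the log2 fold change was -0.35 ± 0.066 (limma adjusted p = 0.00086).

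The 3 effector genes of amino acid and glutathione metabolism split. Asns, which makes asparagine and is a widely used ATF4 target, read 5875.6 and 5973.3 in the 4.5SH knockdown, against 4951.7 and 4899.3 in the control at probe set 1451095_at. The log2 fold change was 0.27 ± 0.044 (limma adjusted p = 0.00037), and 83.9% of tested probe sets had a lower one. Its second probe set, 1433966_x_at, read 4865.7 and 4968.3 in the knockdown, against 4372.7 and 4246.1 in the control, and gave 0.19 ± 0.047 (limma adjusted p = 0.00587). Asns was thus higher at both probe sets, with no overlap. With spike-in scaling the values were 0.12 and 0.047 and did not pass, and the second probe set did not pass without 4.5SH knockdown replicate 2 (0.17, limma adjusted p = 0.0591).

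Chac1, an enzyme that breaks down glutathione, read 576.1 and 586.2 in the 4.5SH knockdown, against 686.2 and 687 in the control. Its replicates were tight, and its log2 fold change of -0.23 ± 0.077 passed (limma adjusted p = 0.0287). It did not pass when any 1 of the 4 arrays was left out (-0.25 to -0.22). Slc3a2, the heavy chain that carries light chains such as Slc7a5 and Slc7a11 to the cell surface for amino acid exchange, read 3247.1 and 3145 in the knockdown, against 4148.6 and 4226.9 in the control. Every knockdown array was far below every control array, and the log2 fold change was -0.39 ± 0.049 (limma adjusted p = 4.37e-05), or 0.763 of the control signal.

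**Figure D2:**
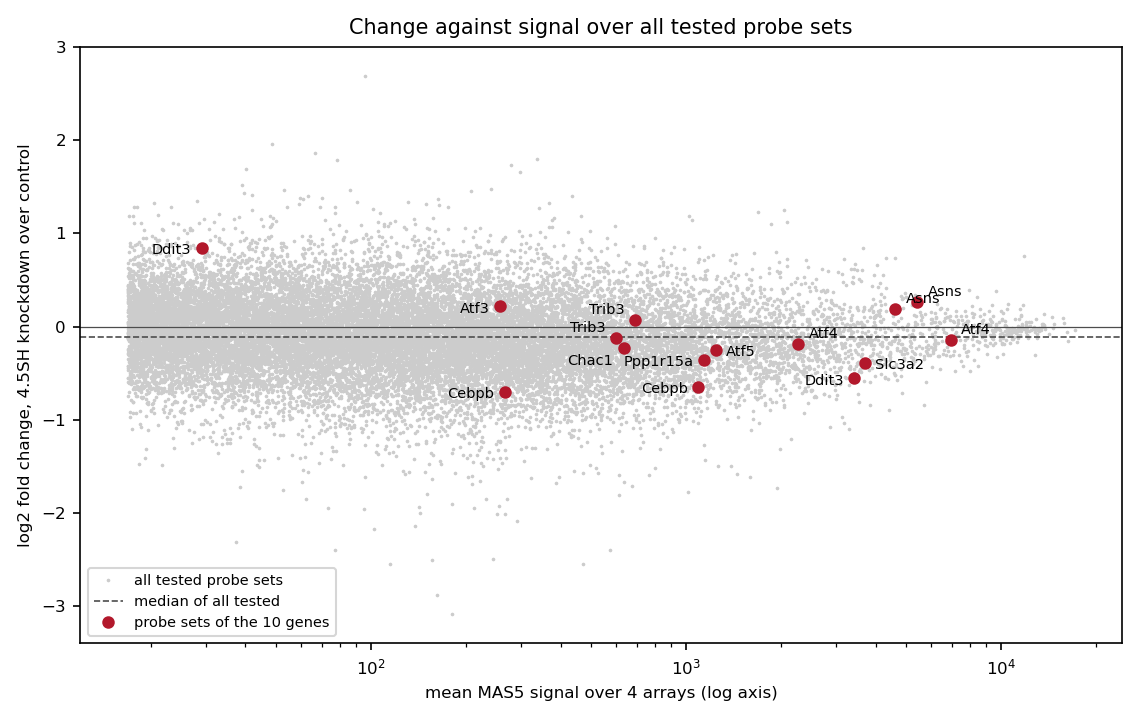
Log2 fold change of the 4.5SH knockdown over the control (vertical axis) against mean MAS5 signal over the 4 arrays (horizontal log axis) for all 22525 tested probe sets (grey) and the 15 tested probe sets of the 10 genes (red), with the median of all tested at -0.11 as a dashed line. Both Asns probe sets lie above the dashed line, and the brighter Ddit3 probe set, Slc3a2 and both Cebpb probe sets lie below it. The dim Ddit3 probe set lies farthest left of the 15.

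How the arrays are scaled decided several of these calls. The median log2 fold change over all tested probe sets was -0.0011 with quantile scaling, 0.019 with arrays centred on tested probe sets, 0.056 with a common 2% trimmed mean, -0.091 after centring on all probe sets and -0.25 with spike-in scaling. On the first 3 of these scales 5 probe sets of the genes were higher and 5 lower, against 3 and 9 as deposited. On each of the 3 scales the first Trib3 probe set and Atf3 were higher (0.20 to 0.26 for Trib3, 0.35 to 0.40 for Atf3), while Atf4, Chac1 and Atf5 no longer passed. With spike-in scaling 1 was higher and 9 lower. The splits of all tested probe sets moved in the same way, to 3817 higher and 3768 lower with quantile scaling, 3773 and 3985 when centred on the tested ones, 4329 and 3465 with the trimmed mean and 1042 and 8008 with spike-in scaling, against 2199 and 5811 as deposited. Over all 5 scales Cebpb stayed lower (-0.79 to -0.48 and -0.85 to -0.53), as did the bright Ddit3 probe set (-0.70 to -0.39), Slc3a2 (-0.53 to -0.22) and Ppp1r15a (-0.50 to -0.19), and the dim Ddit3 probe set stayed higher (0.70 to 1.01). Asns was above 0 on all 5 scales (0.12 to 0.43 and 0.047 to 0.36) and passed on 4 of them.

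**Figure D3:**
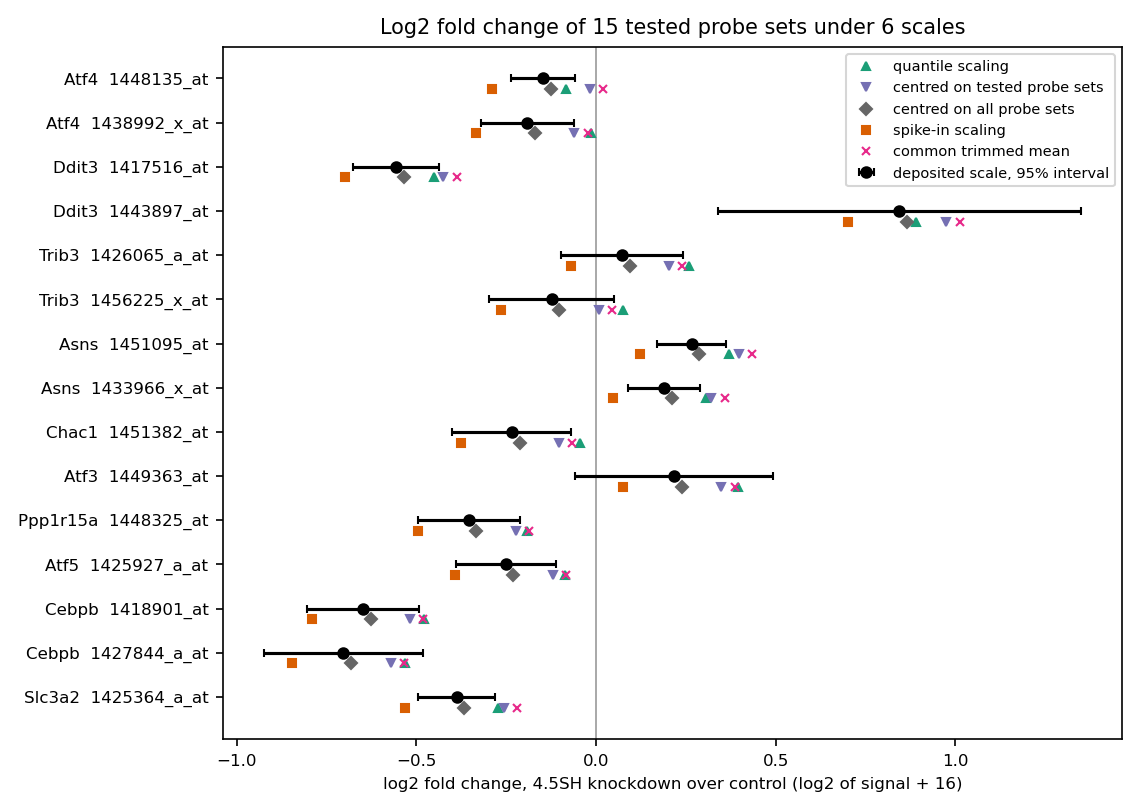
Log2 fold change (horizontal axis, 4.5SH knockdown over control) of the 15 tested probe sets as deposited (black points, 95% intervals of the limma fit) and under 5 other scalings of the arrays (coloured marks below each point). Both Cebpb probe sets, the bright Ddit3 probe set, Slc3a2 and Ppp1r15a lie left of 0 under all 6 scales and both Asns probe sets right of it, whereas the marks of Trib3 and of the first Atf4 probe set fall on both sides.

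Genes were also set against Ddit3 within each array, as differences on the log2(signal + 16) scale; the added 16 keeps these from being wholly free of the array's scale. Asns minus Ddit3, each at its brightest probe set, was 1.10 and 1.09 in the 4.5SH knockdown, against 0.21 and 0.33 in the control, a difference of 0.82. On the knockdown arrays Atf4 minus Ddit3 was 1.24 and 1.25, against 0.77 and 0.91 on the control arrays, a difference of 0.41. For Trib3 and Atf3 the differences to Ddit3 were larger in the knockdown by 0.63 and 0.77. Since the bright Ddit3 probe set itself was lower in the knockdown by 0.56, a gene that fell less or rose stands higher against it. These differences restate that fall together with each gene's own log2 fold change, which was 0.27 for Asns, -0.15 for Atf4, 0.072 for Trib3 and 0.22 for Atf3. Cebpb minus Ddit3 overlapped between the groups, at -1.60 and -1.77 in the knockdown, against -1.63 and -1.56 in the control. These values carry no test of their own, and the dim Ddit3 probe set, which was higher, was not used in them.

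Sequence near the gene starts is shown for the members with a match, so that the calls can be read beside the element through which ATF4 and C/EBP proteins are known to act. In RefSeq promoters (build GRCm38.p6, 250 bases before to 50 after each start), all 10 genes had an entry, 11 promoters in all. The core of the C/EBP-ATF response element was searched as TGATGNAA and, for the opposite strand, TTNCATCA. It was found in 4 of the 11 promoters, in 9 of 63 promoters of the wider list described below and in 3.97% of all 32851 promoters. The cyclic AMP response element TGACGTCA, which reads the same on both strands and does not overlap these matches, was found in the Ppp1r15a promoter and in 1.79% of all. The endoplasmic reticulum stress element ERSE had no match in the 11 promoters and occurred in 0.119% of all. Each line gives 30 bases in the direction of the gene, with the matched letters in capitals.
Asns, chr6:7693214-7693243, minus strand, match starting 23 bases before the gene start: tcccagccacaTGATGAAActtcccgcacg
Chac1, chr2:119351038-119351067, plus strand, 193 bases before: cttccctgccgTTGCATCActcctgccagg
Atf3, chr1:191183425-191183454, minus strand, 110 bases before: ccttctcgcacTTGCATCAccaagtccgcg
Trib3, chr2:152344028-152344057, minus strand, 14 bases after: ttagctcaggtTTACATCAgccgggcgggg
Ppp1r15a, chr7:45526262-45526291, minus strand, 12 bases before: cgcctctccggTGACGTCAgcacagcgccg
Of the 4 genes with the C/EBP-ATF core, on the deposited scale Asns was higher, Chac1 lower, and Atf3 and Trib3 did not pass. With quantile scaling, centring on tested ones or the trimmed mean, Asns, Atf3 and the first Trib3 probe set were higher and Chac1 did not pass (-0.044, -0.10 and -0.067), so which of them share a direction depends on the scale. Chac1 and Atf3 carry the same 8 letters on the same strand. The match is a description of these letters and not of a site in use, and no match says only that the letters are not in this window.

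Other genes of the pathway were read from a list of 66 that holds none of the 10. Of these, 63 were on the array by a single symbol and 59 could be tested, each at its brightest probe set. In this list 16 genes were lower, 6 higher and 37 did not pass, with a median of -0.11 beside -0.11 over all tested probe sets. These counts stand beside 25.8% lower and 9.76% higher over all tested probe sets, and 39.9% and 12.9% among the 11260 brightest, which hold 50 of the 59. Genes of this list named below that did not pass were chosen after their values were seen. The split was tied to scale here too: 16 higher and 10 lower with quantile scaling, and 3 and 26 with spike-in scaling.

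The eIF2B subunits, parts of the exchange factor that reloads eIF2 and that phosphorylated eIF2 blocks, were lower at 4 of 5 genes, on an array where 39.9% of bright probe sets were lower. Eif2b3 read 390.5 and 360 in the 4.5SH knockdown, against 706 and 690.3 in the control, a log2 fold change of -0.87 ± 0.085 (limma adjusted p = 5.36e-06). Eif2b4 (-0.52 ± 0.073) and, named after their values were seen, Eif2b5 (-0.46 ± 0.083) and Eif2b2 (-0.21 ± 0.068) were also lower, and Eif2b1 at -0.092 ± 0.11 did not pass. Eif2s2, the beta subunit of eIF2, was higher: 4713.3 and 4871 in the knockdown, against 3566.6 and 3345.4 in the control, or 0.47 ± 0.051 (limma adjusted p = 1.24e-05), with 4 of its 5 probe sets higher. The group as listed held eIF2 and eIF2B subunits together, and the 5 of eIF2B were not a group of their own. Of the 7 eIF2 and eIF2B subunits tested, 4 were lower, 1 was higher and 2 did not pass. Eif2b2 did not pass when any 1 array was left out (-0.22 to -0.20), nor with quantile scaling (-0.044), centring on tested ones (-0.079) or the trimmed mean (-0.042).

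None of the eIF2 kinases passed. Eif2ak3 (PERK, the kinase of the endoplasmic reticulum) was at -0.26 ± 0.11, Eif2ak1 at 0.20 ± 0.099, Eif2ak2 at 0.26 ± 0.17 and Eif2ak4 at -0.021 ± 0.21. Gcn1 (-0.47 ± 0.091), which activates the kinase encoded by Eif2ak4, and Impact (-0.47 ± 0.076), which counters Gcn1, were both lower. They were the only 2 of 10 genes in the group of kinases and their regulators to pass at the brightest probe set. Dnajc3, a regulator that did not pass there, was higher at 1 of its 4 tested probe sets. Among 4 genes of the eIF2 phosphatase, Ppp1r15b, the constitutive relative of Ppp1r15a, was at -0.25 ± 0.085 and Ppp1cb at -0.26 ± 0.093. Both were lower (limma adjusted p = 0.0329 and 0.0451), and the other 2 did not pass. Ppp1r15b was lower at only 1 of its 2 tested probe sets and Ppp1cb at 1 of 4. Neither of these passed without 4.5SH knockdown replicate 1 (-0.19 and -0.14) or without control replicate 1 (-0.29 and -0.19), and Ppp1r15b did not pass without control replicate 2 (-0.21). Both also failed to pass with quantile scaling (-0.064 and -0.063), centring on tested ones (-0.12 and -0.13) and the trimmed mean (-0.083 and -0.088), and Ppp1cb after centring on all (-0.23).

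Amino acid transporters moved in both directions. Slc38a2, which imports small neutral amino acids and is induced by amino acid shortage, read 1094.8 and 1107.3 in the 4.5SH knockdown, against 695.5 and 690.2 in the control, or 0.66 ± 0.07 (limma adjusted p = 1.12e-05). Slc7a5, a light chain carried by Slc3a2 and named here after its value was seen, was higher by 0.19 ± 0.054, while Slc3a2 itself was lower. Slc7a11, the cystine carrier that pairs with the same heavy chain, was dim and did not pass (0.046 ± 0.18). The cationic amino acid carriers Slc7a3 (-0.55 ± 0.11) and Slc7a1 (-0.24 ± 0.065) were lower, so 2 of 8 transporters were higher, 2 lower and 4 did not pass. Of 9 enzymes of amino acid and one-carbon metabolism 2 were lower, Aldh18a1 of proline synthesis (-0.37 ± 0.058) and Cth of cysteine synthesis (-0.35 ± 0.08), and 7 did not pass. Aldh18a1 was lower at 2 of its 5 tested probe sets and Slc7a1 at 1 of 2, whereas Slc38a2 was higher at 2 of 3. Without 4.5SH knockdown replicate 1, 4.5SH knockdown replicate 2 or control replicate 1, Slc7a1 did not pass (-0.23, -0.24 and -0.18). Slc7a5 did not pass without 4.5SH knockdown replicate 2 or control replicate 1 (0.17 each), nor Cth without control replicate 1 (-0.26, limma adjusted p = 0.0519). On other scales Slc7a1 did not pass with quantile scaling, centring on tested ones or the trimmed mean (-0.081, -0.10 and -0.067), Cth with quantile scaling or the trimmed mean (-0.17 and -0.18), and Slc7a5 with spike-in scaling (0.050). The 7 enzymes that did not pass included the serine synthesis genes Phgdh (-0.052 ± 0.054), Psat1 (0.12 ± 0.056) and Psph (0.067 ± 0.067). Among these 7, Psat1 was higher at 1 of its 2 tested probe sets and Gpt2 was lower at 1 of 4.

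**Figure D4:**
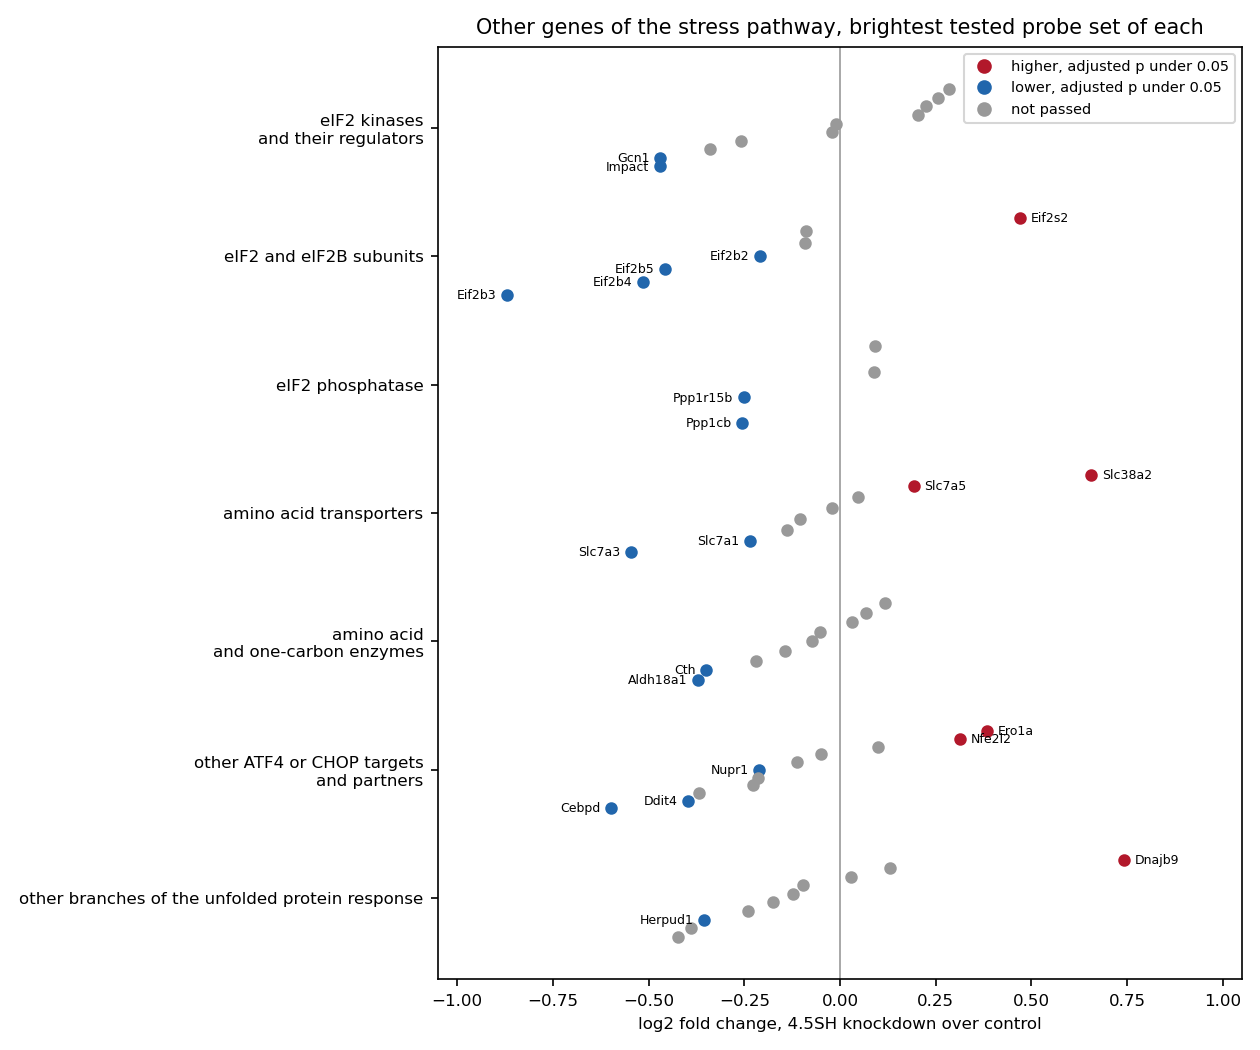
Log2 fold change (horizontal axis, 4.5SH knockdown over control) of 59 other genes of the stress pathway in 7 groups (rows), each point 1 gene at its brightest tested probe set, coloured by limma call at an adjusted p of 0.05. The called genes lie on both sides of 0 in 4 of the groups, and the eIF2B subunits Eif2b3, Eif2b4 and Eif2b5 lie far to the left with Eif2s2 to the right.

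Among other targets and partners of ATF4 or CHOP, 3 of 11 were lower, 2 higher and 6 did not pass. Of those 6, Bcl2l11 was lower at 1 of its 5 tested probe sets, not its brightest. Ddit4, an inhibitor of the growth kinase mTORC1, fell by 0.40 ± 0.06, and the stress protein gene Nupr1 fell by 0.21 ± 0.055. Named after its value was seen, the C/EBP family gene Cebpd fell by 0.60 ± 0.17. Nupr1 and Cebpd were each lower at 1 of 2 tested probe sets. Cebpd was dim, at 45.5 and 46.1 in the knockdown, against 89.6 and 66.8 in the control. The size of its change followed the pseudocount, at -0.74 with 1 and -0.37 with 64. Ero1a, the oxidase of the endoplasmic reticulum that CHOP is known to induce, was higher by 0.38 ± 0.092, with all 3 of its probe sets higher. Nfe2l2, named after its value was seen, was higher at its brightest probe set (0.31 ± 0.10) and lower at its other one. With 4.5SH knockdown replicate 2 left out, Ero1a (0.32), Cebpd (-0.60) and Nfe2l2 (0.20) did not pass. The same held for Nupr1 (-0.16), Cebpd (-0.42) and Nfe2l2 (0.30) without control replicate 1, for Nupr1 (-0.19) and Cebpd (-0.59) without 4.5SH knockdown replicate 1, and for Nfe2l2 (0.32) without control replicate 2. On other scales Nupr1 did not pass with quantile scaling, centring on tested ones or the trimmed mean (-0.090, -0.080 and -0.043), Cebpd with the trimmed mean (-0.43), and Ero1a and Nfe2l2 with spike-in scaling (0.24 and 0.17). In the branches of the unfolded protein response run by ATF6 and IRE1, 1 of 10 genes was higher, 1 lower and 8 did not pass. Dnajb9, a co-chaperone gene of the IRE1 branch, read 441.9 and 476.9 in the knockdown, against 272 and 264.3 in the control, or 0.74 ± 0.094 (limma adjusted p = 4.15e-05). Herpud1, a gene of protein degradation at the endoplasmic reticulum, was lower (-0.36 ± 0.077). The chaperone gene Hspa5 (0.13 ± 0.054) and Xbp1 (0.029 ± 0.068) did not pass at the brightest probe set, and 1 of 3 tested Hspa5 probe sets was higher.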

How the data were processed

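For each array the authors deposited linear intensity values, MAS5 signals of every probe set, per the submitters' processing notes. No version or scaling target of MAS5 was given in these sources. Of 45101 probe sets 64 controls were left out, and 34945 carried 1 symbol, updated by Entrez identifier for 34741. The scale of all tests was log2(signal + 16), with arrays left as deposited, so folds of dim genes are understated. Probe sets with a mean signal at or above the median of all (16.9 upwards) entered limma 3.58.1 under R 4.3.3 (lmFit, eBayes with intensity trend, two-sided, Benjamini-Hochberg over 22525 probe sets). Samples were grouped by their labels. The number of arrays limits the precision.

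Members and lists were chosen with earlier results of these data known. Named genes were every member and, of each subgroup of the wider list, up to 3 genes with the smallest adjusted p, with Actb, Malat1 and Neat1 as controls; other genes named were chosen after their values were seen. Same-numbered replicates did not deviate together (correlation 0.0072), so no pairing was used. Alternatives were pseudocounts, scalings, filters, the variance model, a replicate block, 1 probe set per gene and leaving out each array. Scaling to a common 2% trimmed mean was chosen after seeing the data. Figures were drawn with matplotlib 3.10.9.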

Additional observations from a re-analysis of the deposited data

How the results depend on the processing

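The calls of 4 probe sets of 3 genes, both of Cebpb, the bright one of Ddit3 and that of Slc3a2, held under all alternatives that measured them, and that of Ppp1r15a under all but a fit without the intensity trend (limma adjusted p = 0.0505). Of 22 called genes of the wider list 10 held under all 16. The brightest Atf4 probe set was at -0.15 as deposited and reversed to 0.020 with a common 2% trimmed mean, where it did not pass. Higher and lower probe sets of the 10 genes numbered 5 and 5 with quantile scaling, with arrays centred on tested probe sets and with the trimmed mean, 1 and 9 with spike-in scaling, 1 and 7 without the filter, 1 and 4 without the intensity trend, and 1 and 7 of 10 with 1 probe set per gene. Without the filter both Atf4 probe sets, the dim Ddit3 one and the second Asns one did not pass, and without the trend both of Atf4, both of Asns, Chac1, Atf5 and Ppp1r15a did not. For the wider list they were 16 and 10 with quantile scaling, 16 and 11 with centring on tested ones, 17 and 9 with the trimmed mean, 3 and 26 with spike-in scaling, 4 and 10 without the filter, and 3 and 8 without the trend. For all tested probe sets they were 3817 and 3768, 3773 and 3985, 4329 and 3465, 1042 and 8008, 1241 and 4045, and 1354 and 3778 in the same order, and 1162 and 4163 with 1 probe set per gene. Why these counts moved was not tested beyond the shifts of the median given above; without the filter more probe sets enter the adjustment, and with 1 probe set per gene fewer are tested. Leaving out each array gave 2 to 4 higher and 6 to 8 lower for the 10 genes, 3 to 6 and 9 to 17 for the wider list, and 1200 to 1976 and 4297 to 5265 over all. The 6 lower for the 10 genes came without 4.5SH knockdown replicate 1, the 3 higher in the wider list and 1200 over all without 4.5SH knockdown replicate 2, and the 9 lower in the wider list and 4297 over all without control replicate 1. With the replicate block 3 probe sets of the 10 genes were higher and 9 lower, 19 genes of the wider list lower and 6 higher, and 2399 and 6123 over all, and no call of a probe set of the 10 genes changed. Dim probe sets limit what can be read: the third Atf4 probe set and the 4 untested genes of the wider list lay below the filter. They entered only the fit without the filter, and their changes are not read here. The replicate number was not used as a pairing, since 2 numbers shared by name do not show that samples came from the same day or dish.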
